A study of Mus musculus with 3 samples.

Results

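The regions described here are 1927 stretches of open chromatin that mouse mesenchymal stem cells shared between day 0 and day 7 under immobilization, and that had no summit in the day 7 non-immobilized cells. They were found in autosomal ATAC-seq summit lists, a summit being the base of highest signal in a peak. The 40000 best-scoring summits of the immobilized list and of the day 0 list were each widened by 250 bp on both sides and merged. This gave 28811 regions with a kept summit of both lists, and 1927 of them (6.69%) had no summit of the whole non-immobilized list within 500 bp. The other 26884 did, and served as the comparison. The members were selected on measured values, the presence of summits in 2 lists and their absence from the other, so the 6.69% describes the selection and is not a finding.

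The groups were 3, each with 1 library of mesenchymal stem cells: day 7 after injury with immobilization, day 7 after injury without immobilization, and day 0 before injury. Both day 7 groups had been injured, and they differed by label in immobilization alone. The series concerns heterotopic ossification, the growth of bone in soft tissue after injury. Strain, genotype, age, the markers used to isolate the cells and the number of animals per library are not stated in the labels. With 1 library per group no difference had a replicate check, no test was run and no p-value is given. Intervals in brackets are exact 95% Clopper-Pearson intervals, which cover counting error only.

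In ATAC-seq a transposase cuts and tags DNA that is not wrapped in nucleosomes, so peaks mark active promoters, enhancers and other regulatory elements. Promoters of broadly used genes tend to be open in most cell types, whereas distal enhancers differ more between cell types and states. Mesenchymal stem cells can enter bone, cartilage, fat and tendon lineages. Mechanical load reaches them through integrins, focal adhesions and the YAP/TAZ coactivators. Absence of a summit from a list means that no peak maximum passed there, not that the chromatin was closed, and the files hold no peak widths.

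The libraries and lists differed in depth. The immobilized library had 143818952 read pairs, the non-immobilized library 173029378 and the day 0 library 176119937. Duplicates took 43.4% of the immobilized, 42.0% of the non-immobilized and 60.2% of the day 0 reads. An estimated 75269683 immobilized, 90136518 non-immobilized and 63640194 day 0 pairs were aligned and not duplicated. The immobilized list was the longest, with 67404 summits, against 47912 in the non-immobilized and 51722 in the day 0 list. The non-immobilized list was therefore the shortest although its library had the most pairs that were not duplicates. The 40000 kept summits were 59.3% of the immobilized and 77.3% of the day 0 list. Of 29 mesenchymal progenitor genes, 27 had an immobilized, 21 a non-immobilized and 22 a day 0 summit within 1 kb of an end of the gene. For 18 endothelial markers these numbers were 15, 16 and 7, and for 16 keratinocyte markers 15, 8 and 6. For 17 myeloid markers they were 5, 4 and 2. Pericyte and smooth muscle (13, 11 and 13 of 15), skeletal muscle (11, 10 and 11 of 17), lymphoid (4, 3 and 4 of 16) and Schwann and nerve markers (6, 6 and 5 of 13) differed by at most 2 genes. The summit lists differ in length, and the shares over all genes are not given beside these numbers. Whether any marker list differed between the libraries beyond list length can therefore not be told. The part of these differences in the results below was not tested.

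The promoters among the members fell into 2 kinds, and a few of each are printed because the results turn on this difference. Of the 1927 regions, 65 held a RefSeq start of 67 protein-coding genes (assembly GRCm38.p6, the assembly of mm10). At 25 of them the nearest non-immobilized summit was over 2000 bp away. The first 5 sequences come from these lone promoters and were chosen after their values were seen. Each runs 5′ to 3′ on the gene's own strand, 250 bases before the start and 50 bases from it, in lower case with each CpG dinucleotide in capitals. Neu2 is at chr1:87594300-87594599 on the plus strand, Ndn at chr7:62348027-62348326 plus, Il1r2 at chr1:40085843-40086142 plus, Itga10 at chr3:96645334-96645633 plus and Fgd4 at chr16:16527362-16527661 minus.
Neu2 promoter: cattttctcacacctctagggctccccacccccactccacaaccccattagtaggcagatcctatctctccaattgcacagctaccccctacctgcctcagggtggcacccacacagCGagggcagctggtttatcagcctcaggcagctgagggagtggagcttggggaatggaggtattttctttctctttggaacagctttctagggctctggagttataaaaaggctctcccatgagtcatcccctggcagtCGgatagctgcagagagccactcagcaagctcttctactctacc
Ndn promoter: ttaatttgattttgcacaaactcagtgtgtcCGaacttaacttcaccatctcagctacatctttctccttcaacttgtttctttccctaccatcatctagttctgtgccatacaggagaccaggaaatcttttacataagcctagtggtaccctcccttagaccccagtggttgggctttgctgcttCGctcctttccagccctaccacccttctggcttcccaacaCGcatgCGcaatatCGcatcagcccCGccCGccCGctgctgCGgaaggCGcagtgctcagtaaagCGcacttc
Il1r2 promoter: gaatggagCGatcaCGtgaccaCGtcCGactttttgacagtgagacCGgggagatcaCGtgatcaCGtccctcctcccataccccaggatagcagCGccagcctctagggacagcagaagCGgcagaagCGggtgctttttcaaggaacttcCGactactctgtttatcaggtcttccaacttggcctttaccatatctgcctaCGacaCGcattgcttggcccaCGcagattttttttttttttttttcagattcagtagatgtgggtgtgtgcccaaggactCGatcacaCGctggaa
Itga10 promoter: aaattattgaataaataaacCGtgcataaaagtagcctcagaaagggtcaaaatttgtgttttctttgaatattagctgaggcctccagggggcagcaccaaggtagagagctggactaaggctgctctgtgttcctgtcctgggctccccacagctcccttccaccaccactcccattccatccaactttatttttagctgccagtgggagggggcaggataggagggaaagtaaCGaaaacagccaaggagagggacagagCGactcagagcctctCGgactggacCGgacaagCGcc
Fgd4 promoter: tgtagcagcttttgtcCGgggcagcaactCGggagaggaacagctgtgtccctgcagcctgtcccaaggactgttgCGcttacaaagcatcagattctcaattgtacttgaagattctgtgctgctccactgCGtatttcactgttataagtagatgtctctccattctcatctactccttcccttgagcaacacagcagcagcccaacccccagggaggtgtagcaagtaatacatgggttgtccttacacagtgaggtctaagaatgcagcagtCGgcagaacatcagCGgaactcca

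Neu2, a cytosolic sialidase, scored 20.6 in the immobilized and 14.8 in the day 0 list, and its nearest non-immobilized summit was 13.5 kb away. Ndn, the imprinted gene of the growth suppressor necdin, scored 18.7 in the immobilized and 13.5 in the day 0 list. Its immobilized summit lay 1 bp from the start, and the nearest non-immobilized summit was 71.1 kb away. Both promoters thus had a summit in 2 libraries and none near it in the non-immobilized one.

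Il1r2, the decoy receptor for interleukin-1, scored 12.3 in the immobilized and 14.2 in the day 0 list, with a non-immobilized summit 8.8 kb away. Itga10, a collagen-binding integrin subunit of cartilage, scored 11.5 in the immobilized and 10.8 in the day 0 list, with a non-immobilized summit 10050 bp away. Fgd4, an exchange factor for the GTPase Cdc42, scored 11.3 in both lists, with a non-immobilized summit 32.8 kb away. Their windows hold 2 CpGs for Neu2, 6 each for Itga10 and Fgd4, 11 for Ndn and 16 for Il1r2, against a median of 14 over all RefSeq windows. The Neu2 window also holds a TATAAA just before its start.

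At the other 40 promoter members a non-immobilized summit lay within 2000 bp, at 501 to 1000 bp in 37 of them and at 1001 to 2000 bp in 3. The 4 sequences that follow are of this kind, again with CpG in capitals. Psme2 is at chr14:55591052-55591351 on the minus strand, Rap2b at chr3:61364257-61364556 plus, Foxo3 at chr10:42276646-42276945 minus and Spop at chr11:95413833-95414132 plus.
Psme2 promoter: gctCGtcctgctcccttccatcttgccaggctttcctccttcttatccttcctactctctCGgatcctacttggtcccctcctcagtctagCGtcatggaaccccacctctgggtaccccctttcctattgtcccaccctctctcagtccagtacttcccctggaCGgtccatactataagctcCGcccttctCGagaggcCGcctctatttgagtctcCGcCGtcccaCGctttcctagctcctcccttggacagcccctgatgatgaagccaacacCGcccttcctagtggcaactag
Rap2b promoter: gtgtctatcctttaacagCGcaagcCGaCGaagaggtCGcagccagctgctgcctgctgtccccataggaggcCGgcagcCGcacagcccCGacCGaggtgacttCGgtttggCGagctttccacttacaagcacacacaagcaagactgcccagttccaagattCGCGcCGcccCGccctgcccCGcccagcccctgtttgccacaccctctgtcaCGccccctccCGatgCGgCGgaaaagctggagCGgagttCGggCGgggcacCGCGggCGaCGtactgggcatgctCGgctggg
Foxo3 promoter: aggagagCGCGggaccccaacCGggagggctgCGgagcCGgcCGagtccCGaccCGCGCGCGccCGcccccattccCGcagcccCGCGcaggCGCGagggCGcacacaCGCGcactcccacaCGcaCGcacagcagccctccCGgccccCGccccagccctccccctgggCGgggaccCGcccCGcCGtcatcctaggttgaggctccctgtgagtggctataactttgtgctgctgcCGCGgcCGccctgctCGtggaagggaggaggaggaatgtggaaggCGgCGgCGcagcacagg
Spop promoter: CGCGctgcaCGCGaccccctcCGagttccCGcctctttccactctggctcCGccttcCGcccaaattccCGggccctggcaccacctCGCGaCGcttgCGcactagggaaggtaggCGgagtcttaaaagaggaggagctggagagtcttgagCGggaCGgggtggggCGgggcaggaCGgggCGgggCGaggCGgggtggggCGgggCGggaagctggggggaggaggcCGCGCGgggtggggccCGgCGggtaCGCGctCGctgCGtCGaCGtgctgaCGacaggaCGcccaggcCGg

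Psme2, a subunit of the proteasome activator PA28, scored 77.6 in the immobilized and 76.3 in the day 0 list. A non-immobilized summit with a score of 63.0 lay 563 bp away. Rap2b, a small GTPase of the Ras family, scored 67.8 in the immobilized and 69.4 in the day 0 list, with a non-immobilized summit of 54.6 at 745 bp. Foxo3, a forkhead factor held in check by insulin signalling, scored 56.8 in the immobilized and 61.7 in the day 0 list, with a non-immobilized summit of 49.99 at 1047 bp. Spop, a substrate adaptor of a cullin ubiquitin ligase, scored 47.4 in the immobilized and 53.6 in the day 0 list, with a non-immobilized summit of 39.4 at 624 bp. All 4 promoters had a strong summit in the immobilized and day 0 libraries, and a strong non-immobilized summit stood beside them. At Psme2, Rap2b and Spop the immobilized and day 0 lists had no summit within 250 bp of that neighbour, whereas at Foxo3 a day 0 summit lay 11 bp from it. The Rap2b, Foxo3 and Spop windows hold 27, 35 and 37 CpGs and the Psme2 window 11.

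Most members were weak in both lists that chose them. The score is the authors' −log10 of a p or q value, and a high score ranks a summit near the top of its list. Over the members the median score was 10.9 in the immobilized list (quartiles 9.47 and 13.6) and 9.88 in the day 0 list (quartiles 7.86 and 12.8). In the regions with a non-immobilized summit the medians were 26.5 and 22.6. As a share of list length the median member stood at 47.4% of the immobilized and 54.5% of the day 0 list, against 20.7% and 26.6% for the other regions. The members therefore stood near the middle of both whole lists and the other regions nearer the top. Among the kept summits the members stood lower, since these end at 59.3% of the immobilized and 77.3% of the day 0 list. The 2 summits of a member were as close to each other as elsewhere, at a median of 20 bp, against 21 bp in the other regions.

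**Figure D1:**
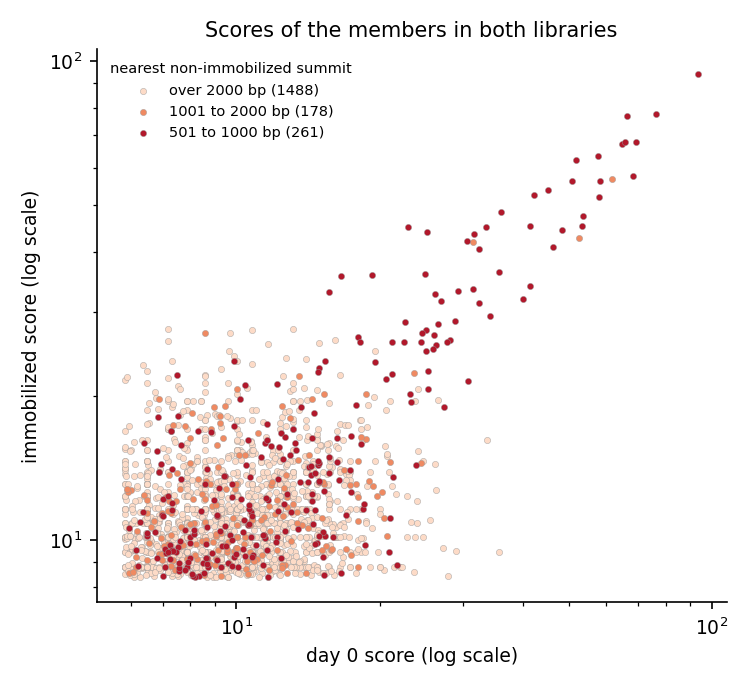
Score of each of the 1927 members in the immobilized list (vertical, log scale) against its score in the day 0 list (horizontal, log scale), coloured by the distance to the nearest non-immobilized summit. Members with a non-immobilized summit at 501 to 1000 bp had a median score of 13.2 immobilized and 12.2 at day 0, and those over 2000 bp away 10.9 and 9.60.

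The share of regions without a non-immobilized summit climbed with weaker rank. Each of the 28811 regions was placed by the worse of its 2 ranks and the regions were split into 10 deciles of equal size. In the best decile 3 of 2882 regions (0.104%, 0.0215 to 0.304) were members. In the fifth decile the share was 0.729% and in the seventh 5.73%. In the weakest decile 763 of 2880 regions were members (26.5%, 24.9 to 28.1). The weakest 3 deciles together held most of the set, with 321, 563 and 763 members.

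The distance used to define absence mattered most at the strong end. With no non-immobilized summit allowed within 2000 bp, 1488 of the 28811 regions remained (5.16%). None of these lay in the best 4 deciles, 2 lay in the fifth, and 630 lay in the weakest decile (21.9%, 20.4 to 23.4). So every member of the best 4 deciles had a non-immobilized summit 501 to 2000 bp away.

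The same search was run the other way round, for non-immobilized and day 0 regions with no immobilized summit. It found 710 of 28608 regions (2.48%), with 0.238% in the best decile and 8.71% in the weakest. The immobilized list is longer than the non-immobilized one. The 40000 kept summits were 59.3% of the immobilized and 83.5% of the non-immobilized list, so the 2 searches also started from unlike parts of the lists. With the immobilized list reduced to its best 47912 summits, the length of the non-immobilized list, the count was 1657 of 28608 (5.79%). These shares describe the 2 selections and were not tested.

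**Figure D2:**
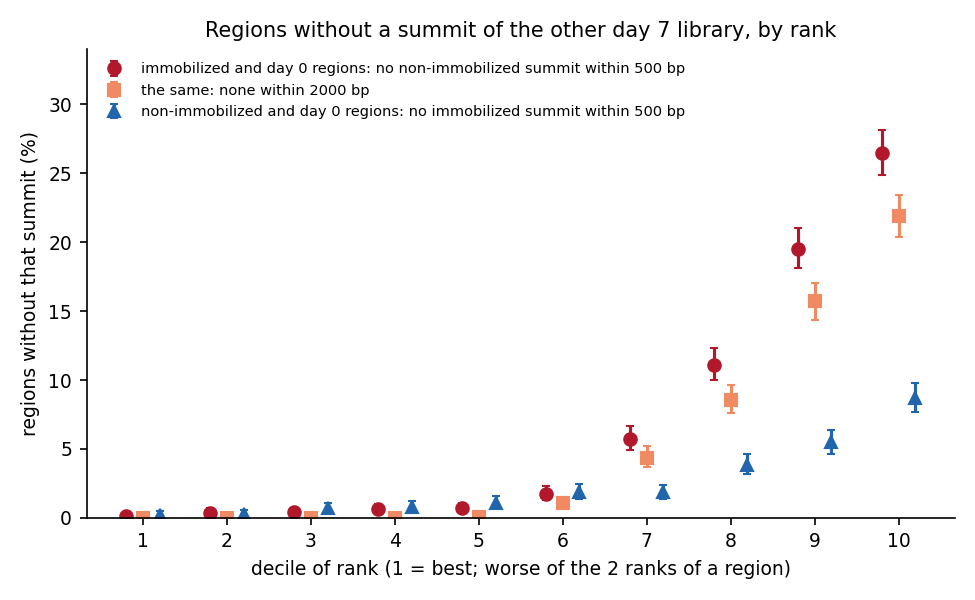
Share of regions (%) without a summit of the other day 7 library, by decile of rank from 1 (best) to 10 (weakest), with 95% intervals. For the immobilized and day 0 regions (circles) the share was 0.104% in the best decile and 26.5% in the weakest, with none within 2000 bp (squares) it was 21.9% in the weakest, and for the mirror search (triangles) it was 0.238% and 8.71%.

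Strong members were few and lay beside a non-immobilized summit. In 85 members both ranks were within the best 20000. For 67 of them (78.8%, 68.6 to 86.9) a non-immobilized summit lay at 501 to 1000 bp, and for 73 (85.9%, 76.6 to 92.5) within 2000 bp. These neighbouring summits were strong themselves, with a median rank of 10698, and 64 of the 67 were within the best 20000 of the non-immobilized list. Among strong regions that had a non-immobilized summit within 500 bp, a further one at 501 to 1000 bp was present in 1824 of 15821 (11.5%, 11.0 to 12.0). Counted in the same way, from the best summit of the region, it was present in 64 of the 85 strong members (75.3%, 64.7 to 84.0). Selection for an empty 500 bp comes before this count, so it describes where the non-immobilized summit of these regions lay. In 51 of the 67 (76.1%, 64.14 to 85.69) neither the immobilized nor the day 0 list had a summit within 250 bp of the neighbouring non-immobilized summit. In 10 of the 67 (14.9%, 7.396 to 25.74) both lists had one there as well, so the neighbour was a further element that all 3 libraries shared. In the mirror search 98 of 115 strong regions (85.2%, 77.4 to 91.1) had an immobilized summit at 501 to 1000 bp.

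Weak members differed from this. Of the 1842 others, 194 (10.5%, 9.17 to 12.0) had a non-immobilized summit at 501 to 1000 bp, and it was within the best 20000 in 74 of them. Both other lists had a summit within 250 bp of that neighbour in 131 of the 194 (67.5%, 60.45 to 74.06), and neither did in 25 (12.9%, 8.516 to 18.43). Over all 1927 members the nearest non-immobilized summit was a median of 7339 bp away (quartiles 2276 and 20030), with a lowest value of 502 and a highest of 974428. It lay at 501 to 1000 bp for 261 members, at 1001 to 2000 bp for 178 and beyond 2000 bp for 1488. For 796 members it was more than 10 kb away and for 179 more than 50 kb.

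**Figure D3:**
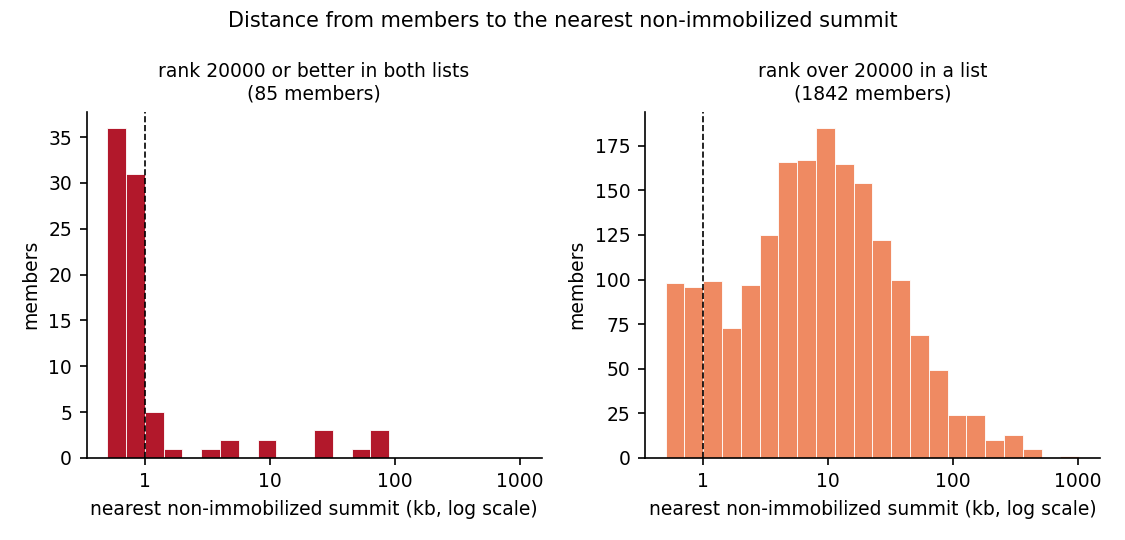
Number of members (vertical) by distance in kb (horizontal, log scale) to the nearest non-immobilized summit, for the 85 strong members (left, both ranks within 20000) and the 1842 weaker ones (right), with a dashed line at 1 kb. Strong members crowd just above the 500 bp limit of the definition (67 of 85 at up to 1000 bp), while the weaker ones spread around a median of 8004 bp.

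The 20 best-ranked members had a non-immobilized summit beside them. In 19 of the 20 neither the immobilized nor the day 0 list had a summit within 250 bp of it. A gene end lay within 1 kb of 16 of them, a non-immobilized summit within 1000 bp of 18 and within 2000 bp of all 20. The highest was at Sap130, a subunit of the Sin3A corepressor complex, with scores of 93.9 immobilized and 93.6 at day 0. A non-immobilized summit of 72.0 stood 644 bp from it. Ntan1, an amidase of the N-terminal degradation pathway, had 76.7 immobilized and 66.4 at day 0, with 54.0 at 544 bp in the non-immobilized list. Stmn1, the microtubule destabilizer stathmin, had 67.8 immobilized and 65.7 at day 0, with 52.8 at 734 bp. In these 3 the non-immobilized summit had the lowest score of the 3 libraries, but scores of different libraries depend on depth and are not compared as amounts.

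Transcription regulators were among these 20. Elf2, an Ets factor, had scores of 63.4 immobilized and 57.6 at day 0, with a non-immobilized summit of 48.6 at 645 bp. Tfeb, a regulator of lysosome genes, had 45.2 immobilized and 53.5 at day 0, with 47.2 at 784 bp. Jdp2, a repressor that pairs with AP-1 factors, had 53.9 immobilized and 45.2 at day 0 in a region 26.3 kb from the gene, with 40.0 at 814 bp. Nab2, a corepressor of Egr factors, had 42.8 immobilized and 52.5 at day 0, with 34.5 at 1129 bp. Each of these 4 had a non-immobilized summit close by, past the 500 bp limit. The remaining genes of the 20 were Psme2, Rap2b, Foxo3, Spop, Map3k6, Ercc1, Ap4m1, Gpr19, Nup153, Ppp2r2a, Samd8, Ywhae and Gm20783, the last a predicted gene whose reads may be shared with copies elsewhere.

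Of the 85 strong members, 12 had no non-immobilized summit within 2000 bp. They are named here after their values were seen. Zfp469, a zinc finger gene whose human counterpart is mutated in brittle cornea syndrome, had one 0.7 kb from its end at chr8:122273079-122273600. It scored 26.2 immobilized and 16.1 at day 0, and the nearest non-immobilized summit was 8.5 kb away. Crtc1, a coactivator of CREB, had one 1.1 kb from an end and inside the gene at chr8:70383230-70383749, with 19.2 immobilized and 18.9 at day 0. Its nearest non-immobilized summit was 8.8 kb away. These were the 2 strong lone members closest to a gene end.

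Of the rest, 6 lay inside genes. Tspan12, a tetraspanin of the Norrin and Frizzled-4 receptor complex, held chr6:21857714-21858227, with 24.8 immobilized and 19.5 at day 0. Pde4d, a cAMP phosphodiesterase, held chr13:109662692-109663220, with 25.8 immobilized and 14.9 at day 0. Lipc, the hepatic lipase gene, held chr9:70807624-70808246, with 19.6 immobilized and 26.6 at day 0. The nearest non-immobilized summits were 5.6 kb away at Tspan12, 3.8 kb at Pde4d and 27.1 kb at Lipc.

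Bcas3, a gene of cell migration, held chr11:85713464-85713970, with 20.6 immobilized and 24.1 at day 0 and a non-immobilized summit 46.5 kb away. Pdlim5, a PDZ and LIM domain protein of the actin cytoskeleton, held chr3:142294785-142295293, with 19.4 immobilized and 15.6 at day 0 and a non-immobilized summit 23.3 kb away. Cacna1a, a calcium channel subunit best known from neurons, held chr8:84554221-84555143, with 19.9 immobilized and 19.5 at day 0 and a non-immobilized summit 4.5 kb away. The other 4 lay outside genes, and their nearest gene ends were those of Rwdd3 at 50.4 kb, Ttc39b at 36.8 kb, Arid1b at 381.9 kb and Hsf2 at 482.2 kb. None of these 12 genes belongs to the bone, cartilage, fat or tendon lists described further on.

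Members were rarely near gene ends. Among regions of like rank the share was lower than in other regions in the 4 weakest deciles. In the stronger deciles, which hold few members, it went both ways. A gene end lay within 1 kb of 184 of 1927 members (9.55%, 8.27 to 10.9), against 10234 of 26884 other regions (38.1%, 37.5 to 38.7). Strong regions were more often near a gene end, with 86.2% of the other regions in the best decile, so the comparison was repeated within deciles. In the seventh decile of rank the shares were 7.88% of members (4.26 to 13.1) and 16.2% of other regions (14.8 to 17.6). In the eighth they were 9.03% (6.13 to 12.7) and 13.4% (12.1 to 14.8), with intervals that overlap. In the ninth they were 7.46% of members (5.43 to 9.95) and 12.9% of other regions (11.5 to 14.3). In the weakest decile they were 6.95% of members (5.25 to 8.99) and 11.5% of other regions (10.2 to 13.0). In the fourth, the fifth and the sixth decile the direction was the opposite, with 11 of 18 (61.1%), 8 of 21 (38.1%) and 10 of 50 members against 40.3%, 26.5% and 18.1% of the other regions, and the intervals overlapped.

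**Figure D4:**
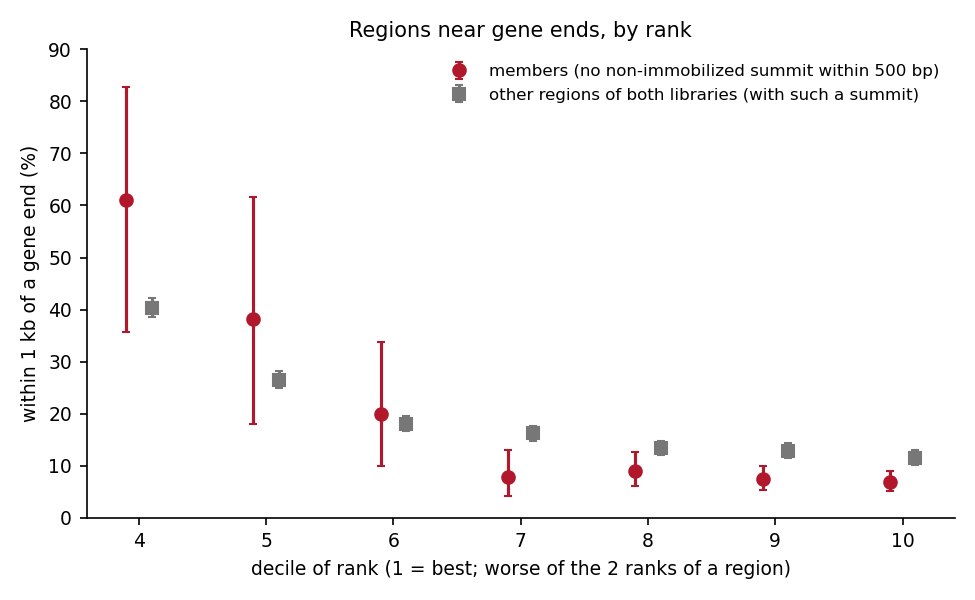
Share of regions (%) within 1 kb of a gene end, for members and for regions with a non-immobilized summit, by decile of rank, with 95% intervals. Deciles 1 to 3 are not drawn because they hold 3, 11 and 12 members. In deciles 7 to 10 the members lie between 6.95% and 9.03% and the other regions between 11.5% and 16.2%.

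Members closer to a non-immobilized summit were more often near a gene end. Of members with such a summit at 501 to 1000 bp, 32.2% (26.6 to 38.2) lay within 1 kb of a gene end. At 1001 to 2000 bp the share was 10.7% (6.55 to 16.2), and beyond 2000 bp it was 5.44% (4.35 to 6.72). The median distance to a gene end was 4169 bp, 10080 bp and 20100 bp for these 3 kinds. The 2 distances are not independent, since peaks cluster at promoters. The 3 kinds also differed in strength, since 67 of the 85 strong members had such a summit at 501 to 1000 bp. A gene end lay within 1 kb of 49.4% of strong and 7.71% of weaker members. The 3 kinds were not matched for rank.

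The share inside genes was slightly lower in members. It was 51.7% of members (49.4 to 53.9) and 54.3% of other regions (53.7 to 54.9), with intervals that overlap, and 51.4% (49.05 to 53.66) and 55.3% (54.32 to 56.19) with a rank beyond 20000 in either list. No gene end lay within 50 kb of 25.5% of members (23.6 to 27.5), against 15.5% of other regions (15.1 to 16.0). Among regions of the same weaker ranks these shares were 26.0% (24.0 to 28.1) and 23.7% (22.9 to 24.5), which overlap.

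The mirror search gave shares near gene ends that depended on rank and list length. A gene end lay within 1 kb of 21.4% (18.4 to 24.6) of the 710 mirror regions, and of 14.1% (12.5 to 15.9) with the immobilized list reduced to equal length. With ranks beyond 20000, the share was 7.71% (6.53 to 9.02) for members, 15.8% (12.96 to 18.98) for the mirror and 11.5% (9.92 to 13.2) for the mirror at equal list length. The weaker other regions of the immobilized and day 0 lists stood at 14.1% (13.5 to 14.8). The members' share was thus the lowest of these sets. Beyond rank 20000 the sets were not matched further for rank, the intervals cover counting error only, and the difference was not tested.

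The promoters that were members held fewer CpGs than promoters with a non-immobilized summit, and those farthest from such a summit held fewest. Base composition was read in 300-base RefSeq windows, available for 16456 of 20661 protein-coding autosomal genes. The median was 15 CpGs and 58.0% G and C in 69 windows of members, against 23 CpGs and 62.7% in 9094 windows of other regions. In the 44 member windows with a non-immobilized summit at 501 to 2000 bp the median was 16 CpGs, and in the 25 with none within 2000 bp it was 11. The 946 windows of weak other regions had a median of 17 and all 20084 windows one of 14. Observed CpG over that expected from base content had medians of 0.47 in the 25 lone windows, 0.66 in the weak other windows and 0.80 in all windows with a non-immobilized summit. With 25 windows the quartiles of the lone kind, 7 and 15 CpGs, overlap those of the weak other windows, 9 and 26.

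Short motifs were searched on both strands as plain letters, and a match is a description of the window. GGGCGG, the GC box, was present in 53.6% of the 69 member windows, 72.3% of the windows with a non-immobilized summit and 47.0% of all windows. CCAAT was present in 30.4%, 40.5% and 38.1% of the same windows, and TATAAA in 7.25%, 5.53% and 12.7%. TGANTCA, an AP-1 site, was present in 7.25%, 4.27% and 7.06%, and GGAATG, a TEAD site, in 10.1%, 11.1% and 13.4%. TGTGGT, a RUNX site, was present in 11.6%, 11.1% and 14.8%, and CANNTG, the E box, in 65.2%, 60.6% and 68.7%. In the 946 windows of weak other regions the shares were 61.2% for the GC box, 28.6% for CCAAT and 7.72% for TATAAA. They were 7.51% for the AP-1 site, 15.5% for TEAD, 12.8% for RUNX and 68.3% for the E box. The members' CCAAT, TATA box and AP-1 shares were thus close to those of the weak other windows. The members' AP-1 and TATA box shares each rest on 5 windows. GGGCGG itself holds a CpG, so its share moves with CpG content. TGANTCA and CANNTG read the same on both strands and no motif searched lies within another.

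Members were spread thinly over genes. Regions took the name of the protein-coding gene whose end was closest, up to 50 kb away, and 1435 members (5.94% of 24147 assigned regions) fell to 1325 genes of 12795. Of these genes 1224 had 1 member, 93 had 2, 7 had 3 and 1 had 4. For 1326 of the 1435 assigned members the gene had at least 1 non-immobilized summit assigned to it. For 104 genes with a member no non-immobilized summit was assigned. Such a gene can still have one close by, as at Psme2, with 0 assigned and one 563 bp from its member. Most members were thus single elements of genes that had other summits in the non-immobilized list.

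The gene with the most members was Sdk2, which encodes the adhesion molecule sidekick-2, with 4 of its 8 regions. Their scores were 10.7, 9.4, 9.2 and 8.4 in the immobilized and 9.6, 11.0, 10.7 and 9.6 in the day 0 list. All 4 lay inside the gene, with the nearest non-immobilized summit 2.5 to 25.9 kb away. The gene had 8 non-immobilized, 14 immobilized and 14 day 0 summits assigned, so it was not without summits in any library.

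The 7 genes with 3 members each were Nfatc2, St3gal5, Ano6, Bcar3, Parva, Fbn1 and Samd4. Nfatc2, a calcium-regulated transcription factor, had its best member at chr2:168479818-168480323, with 22.0 immobilized and 13.5 at day 0 and a non-immobilized summit 1.4 kb away. St3gal5, the sialyltransferase that makes the ganglioside GM3, had 15.1 immobilized and 12.4 at day 0 in its best, 6.8 kb from a non-immobilized summit. Bcar3, an adaptor of the Cas protein at adhesions, had its members inside the gene, the better 2 with 12.1 and 12.4 immobilized and 15.7 and 7.8 at day 0. Their non-immobilized summits were 7.3 and 5.1 kb away. Ano6, a calcium-dependent lipid scramblase, and Samd4, an RNA-binding translational repressor, had members with immobilized scores of 8.5 to 13.0 and day 0 scores of 6.0 to 23.7.

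The lineage lists held 2 or 3 members each. The lists were counted beside the share of all assigned regions (5.94%) and beside the number that the rank deciles of the list's own regions would give. Of 28 regions at osteogenic genes 3 were members (10.7%, 2.27 to 28.2; 2.23 from rank). A member lay inside Runx2, the master regulator of bone formation, with 9.3 immobilized and 7.3 at day 0 and a non-immobilized summit 4.3 kb away. Another lay 14.7 kb from Sp7, the osteoblast factor osterix, with 16.4 immobilized and 14.8 at day 0 and a non-immobilized summit 3.7 kb away. The remaining one lay 26.0 kb from Dmp1, a matrix protein of osteocytes, with 13.0 immobilized and 18.8 at day 0 and a non-immobilized summit 3.2 kb away. The Runx2 member was the weakest of the 3 in both lists.

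Of 25 regions at chondrogenic genes 2 were members (1.42 from rank), and both had a non-immobilized summit close by. Sox6, a partner of Sox9 in cartilage, had 14.3 immobilized and 14.2 at day 0, with a non-immobilized summit 0.8 kb away. Col2a1, the main collagen of cartilage, had 12.2 immobilized and 8.6 at day 0, with one 1.2 kb away. Of 61 regions at adipogenic genes 2 were members (3.28%, 0.4 to 11.3; 3.16 from rank). Plin1, the coat protein of lipid droplets, had 19.8 immobilized and 14.4 at day 0 with a non-immobilized summit at 1.0 kb. The other member was assigned to Srebf1, a regulator of lipid synthesis, by its closest gene end, but lay inside the gene Rai1. It had 20.2 immobilized and 23.2 at day 0, with a non-immobilized summit at 0.6 kb. At Plin1 the immobilized and day 0 lists also had a summit 62 and 4 bp from the non-immobilized one, so the member lay beside a shared element. For the member assigned to Srebf1 and lying inside Rai1, the nearest immobilized and day 0 summits were 645 and 714 bp from the non-immobilized one.

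Of 40 regions at tenogenic genes 2 were members (3.11 from rank). Tnc, the matrix glycoprotein tenascin-C, had 15.5 immobilized and 5.8 at day 0, 77.5 kb from a non-immobilized summit. Fmod, the tendon proteoglycan fibromodulin, had 10.5 immobilized and 9.7 at day 0, 2.8 kb from one. Of the genes looked up in any case, Sox9, Pparg, Cebpa, Scx, Ddr2, Ptk2, Tead1, Pdgfra, Prrx1, Ebf2, Col1a1, Pax7, Pecam1 and Cdh5 had 0 members. They had 1 to 7 shared regions each. Over all genes with a shared region 1325 of 12795 had a member, so 0 members is the usual number for a gene. Ptk2, the focal adhesion kinase, had 6 shared regions and 11 non-immobilized summits, and Tead1, a partner of YAP, had 7 and 12. For Acan, Krt14 and Il1b no region shared by the immobilized and day 0 lists was assigned.

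Mesenchymal progenitor genes had 6 members of 73 regions (8.22%, 3.08 to 17.0; 6.61 from rank). Foxc1, a factor of mesenchymal niche cells, had 13.6 immobilized and 9.4 at day 0 in a region whose best summit lay 495 bp from an end of the gene, with a non-immobilized summit of 37.1 at 0.6 kb. Dlk1, a transmembrane inhibitor of fat formation, had 13.3 immobilized and 16.5 at day 0 in a region 40.8 kb away, with a non-immobilized summit at 0.6 kb. Cxcl12, the chemokine of stromal niches, had 11.5 immobilized and 9.4 at day 0 inside the gene, with a non-immobilized summit at 5.4 kb. Dpp4, a surface peptidase of fibroblast progenitors, had 10.9 immobilized and 10.04 at day 0, with a non-immobilized summit at 29.9 kb. The first 2 had a non-immobilized summit within 1 kb and the other 2 did not.

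Matrix and adhesion genes held the most members by number, and the count was close to that from rank. Extracellular matrix genes had 12 of 142 regions (8.45%, 4.44 to 14.3; 12.23 from rank). Fbn1, the microfibril protein fibrillin-1, had 3 with 14.5, 10.2 and 9.6 immobilized and 8.1, 10.04 and 7.35 at day 0. Prelp, a leucine-rich proteoglycan, had 2 with 11.1 and 9.2 immobilized and 9.8 and 7.7 at day 0. Col1a2, a chain of type I collagen, had one inside the gene, 775 bp from an end, with 14.9 immobilized and 11.2 at day 0 and a non-immobilized summit of 27.1 at 871 bp. Col15a1, a basement membrane collagen, had one 3.3 kb from an end, with 10.03 immobilized and 9.6 at day 0 and a non-immobilized summit at 2.3 kb.

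Focal adhesion and collagen receptor genes had 12 of 113 (10.6%, 5.61 to 17.8; 9.16 from rank). Parva, which encodes alpha-parvin of the integrin-linked kinase complex, had 3 with 11.6, 9.0 and 8.8 immobilized and 10.8, 9.3 and 7.9 at day 0. Nedd9, a Cas family scaffold, had 2 with 10.7 and 10.2 immobilized and 9.0 and 14.8 at day 0. Ddr1, a collagen receptor kinase, had 2 of its 5 regions, at 33.3 and 35.1 kb from the gene, with 19.1 and 14.9 immobilized and 12.5 and 7.1 at day 0. In the mirror search Ddr1 also had 2 regions, and the related receptor Ddr2 had 0 members of 4 regions. Tns3, a tensin that links integrins to actin, had 1 with 10.2 immobilized and 11.5 at day 0.

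YAP/TAZ and TEAD genes had 5 of 82 regions (6.1%, 2.01 to 13.7; 5.68 from rank). Amotl2, an angiomotin that binds YAP, had 2. The better one, 4.1 kb from the gene, had 21.0 immobilized and 7.5 at day 0 and lay 9.0 kb from a non-immobilized summit. Yap1 had 1 inside the gene at chr9:7943687-7944508, with 11.3 immobilized and 12.6 at day 0, 16.3 kb from a non-immobilized summit. Stk4, the Hippo kinase MST1, had 1 with 8.8 immobilized and 10.04 at day 0, 52.6 kb from one. All 5 were over 2000 bp from a non-immobilized summit.

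Among signalling lists the BMP and TGF-beta genes stood lowest and the insulin and IGF genes highest. BMP and TGF-beta genes had 1 of 102 regions (0.98%, 0.0248 to 5.34; 6.12 from rank). It lay inside Acvr2b, an activin and BMP receptor, with 11.6 immobilized and 11.0 at day 0, 5.0 kb from a non-immobilized summit. Insulin and IGF genes had 8 of 62 (12.9%, 5.74 to 23.9; 4.7 from rank). Igfbp5, an IGF-binding protein, had 2 with 16.2 and 9.2 immobilized and 18.7 and 13.1 at day 0. Sgk1, a kinase of the PI3K branch, had 2 with 11.6 and 9.5 immobilized and 9.3 and 9.4 at day 0. Foxo3 had 2, its promoter and a region 3.5 kb from an end with 13.4 immobilized and 6.5 at day 0. Igf2r, the scavenger receptor for IGF2, had 1 with 13.1 immobilized and 9.97 at day 0, 1.0 kb from a non-immobilized summit. The interval of the BMP and TGF-beta list ends below 5.94% and that of the insulin and IGF list covers it, and none of the 27 lists was tested.

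Notch genes had 7 of 64 regions (10.9%, 4.51 to 21.2; 4.77 from rank). Rbpj, the DNA-binding factor of the pathway, had 2 with 14.4 and 10.9 immobilized and 5.8 and 8.6 at day 0, 33.9 and 82.2 kb from a non-immobilized summit. The receptor Notch1 had 2 with 9.2 and 9.0 immobilized and 9.1 and 16.6 at day 0. The target Hes1 had 1 with 14.9 immobilized and 15.7 at day 0, 45.1 kb from the gene. The receptor Notch3 had 1 with 15.9 immobilized and 13.3 at day 0, 0.7 kb from a non-immobilized summit. The interval of the Notch list covers 5.94%, and 4 of the 7 members were over 2000 bp from a non-immobilized summit.

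Wnt genes had 4 of 64 (6.25%, 1.73 to 15.2; 5.51 from rank) and FGF genes 3 of 62 (4.84%, 1.01 to 13.5; 4.37 from rank). Lrp5, a Wnt coreceptor of bone mass, had 8.6 immobilized and 23.6 at day 0, 19.9 kb from a non-immobilized summit. Sfrp2, a secreted Wnt antagonist, had 13.0 immobilized and 6.7 at day 0, 2.0 kb from one. Wnt9a, a ligand of joint formation, had 10.6 immobilized and 12.2 at day 0, and Tcf7l1, a nuclear factor, had 9.3 immobilized and 17.4 at day 0. In the FGF list Etv4 and Etv5, Ets factors induced by FGF, had 11.8 and 9.5 immobilized and 11.7 and 11.1 at day 0, and the ligand Fgf1 had 13.4 immobilized and 12.2 at day 0. All 7 of these members had immobilized scores between 8.6 and 13.4.

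Stimulus-response lists held 2 or 3 members each, and the interval of every one of these 4 lists covers 5.94%. AP-1 and immediate early genes had 3 of 101 (2.97%, 0.617 to 8.44; 6.21 from rank). Bach1, a repressor that binds AP-1-like sites, had 2 with 14.0 and 11.1 immobilized and 6.6 and 6.4 at day 0, and Klf4, an immediate early factor, had 1 with 10.9 immobilized and 8.6 at day 0. Glucocorticoid and circadian genes had 2 of 84 (2.38%, 5.38 from rank), at Arntl, the clock factor BMAL1, and at Zbtb16, a glucocorticoid-induced repressor. Inflammatory genes had 3 of 88 (3.41%, 4.7 from rank). They lay 3.2 kb from the chemokine Cxcl2, 2.7 kb from the NF-kappa-B subunit gene Nfkb1 and 11.8 kb from the cytokine signalling inhibitor Socs3. Hypoxia and angiogenic genes had 2 of 53 (3.77%, 3.8 from rank), at the oxygen sensor Egln1 and the glycolytic regulator Pfkfb3. The members of the last 3 lists scored 8.9 to 16.1 immobilized and 7.1 to 12.7 at day 0.

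Cell cycle genes had 0 members of 60 regions, which allows a share of up to 5.96%, and 3.43 would be the number from rank. The Ap4m1 member among the best 20, counted there by its nearest gene end, also holds the start of Mcm7, a replication licensing gene of this list. Housekeeping genes had 1 of 33 (1.67 from rank). Limb position genes, homeobox and related factors that keep a cell's place along the limb, had 6 of 55 (10.9%, 4.11 to 22.2; 4.98 from rank). En1, a marker of the ventral limb, had 2 with 12.6 and 8.8 immobilized and 14.4 and 13.8 at day 0. Lhx2, a LIM homeobox factor of the limb bud, had 2 with 10.9 and 9.5 immobilized and 8.1 and 9.7 at day 0. Hoxc10, a hindlimb Hox gene, had 12.7 immobilized and 13.7 at day 0, and Alx4, an anterior limb factor, had 12.2 immobilized and 6.2 at day 0. None of these 6 was a strong member.

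Markers of other cell types held 0 to 5 members each, in lists of 9 to 40 regions, and the interval of every one of these lists covers 5.94%. Pericyte and smooth muscle markers had 5 of 40 (12.5%, 4.19 to 26.8; 3.48 from rank), and 2 of the 5 were over 2000 bp from a non-immobilized summit. Acta2, smooth muscle actin, had 14.7 immobilized and 8.8 at day 0, Cspg4, the NG2 proteoglycan, had 15.1 immobilized and 14.2 at day 0, and Lmod1, a smooth muscle leiomodin, had 10.4 immobilized and 12.6 at day 0. Their nearest non-immobilized summits were 10.6 kb away at Acta2, 1.7 kb at Cspg4 and 0.9 kb at Lmod1. Skeletal muscle markers had 2 of 24 (8.33%, 2.4 from rank). A member 23.1 kb from Myod1, the myogenic master factor, had 10.5 immobilized and 8.2 at day 0. Another, 567 bp outside Myh1, a fast myosin, had 9.5 immobilized and 9.3 at day 0. Myeloid markers had 2 of 13 (15.4%, 1.45 from rank), inside Cd14 and 2.1 kb from Cebpe. Endothelial markers had 1 of 22 (4.55%, 1.99 from rank), 18.9 kb from Erg. Lymphoid markers had 1 of 9 (11.1%, 0.45 from rank), 9.9 kb from Klrb1c. Schwann and nerve markers had 1 of 25 (4.0%, 1.65 from rank), 28.7 kb from Sox10. Keratinocyte markers had 0 of 13 (1.6 from rank), which allows up to 24.7%.

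**Figure D5:**
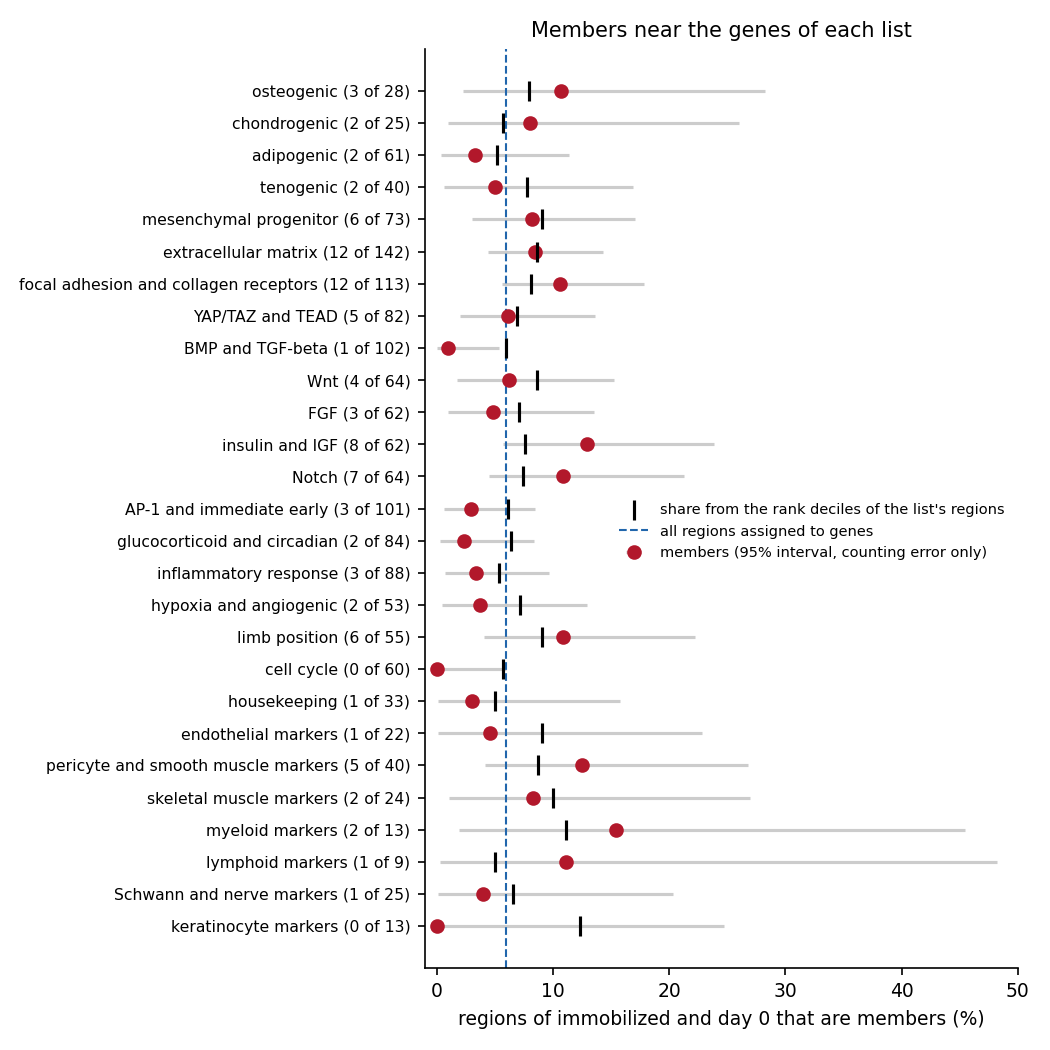
Share of regions (%) assigned to each of 27 gene lists that are members, with 95% intervals, the share that the rank deciles of the list's regions would give (black ticks) and the share of all assigned regions (5.94%, dashed line). Most intervals cover both marks, the BMP and TGF-beta list lies at 0.98% and the insulin and IGF list at 12.9%.

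Members did not gather next to each other on the genome. Within 10 kb there were 7419 pairs of neighbouring regions, and 33 pairs were both members. Of the neighbours of a member, 6.58% were members, against 6.76% of all regions in such pairs. Within 25 kb the shares were 6.42% and 6.52%. By chromosome the share of members ran between 5.16% (4.11 to 6.39) on chromosome 8 and 8.11% (6.74 to 9.64) on chromosome 3.

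The limits of the definition cut through regions of every strength. Just inside the 500 bp limit stood a member near Chst1 with a non-immobilized summit at 502 bp, one near 0610030E20Rik at 504 bp and one near Ebf4 at 507 bp. Just outside stood regions near Ube2q2 at 500 bp, Xrn2 at 499 bp and Cep78 at 498 bp. At the rank limit a member near Gramd4 held rank 39992 of the immobilized list and one near Auts2 rank 39997 of the day 0 list. A region near Ebf1, at rank 40011 of the immobilized list, and one near Ache, at rank 40001 of the day 0 list, were left out. The day 0 score at rank 40000 was shared by 906 summits, of which 289 were kept in order of position.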

How the data were processed

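ATAC-seq summit lists of 3 mouse mesenchymal stem cell libraries were used, 1 per group, with groups taken from the sample titles. Tools listed in the submitters' processing notes, with neither settings nor order, are MACS2 2.1.2 (the peak caller), Bowtie2 2.3.4.1 (the aligner), edgeR 3.26.5, bedtools 2.28.0, SAMtools 1.2, Picard, cutadapt, Trim Galore and FastQC, and the build listed is mm10. How reads were filtered or shifted for the transposase, and the peak cutoff, were not recorded there. The layout of the authors' deposited files is that of MACS2, so the score was taken as a −log10 p or q value, and which of the 2 it is remains unknown. In the deposited statistics, per the file headers, reads are a count per read file, duplication is a fraction and alignment is a percent. Pairs aligned and not duplicated were computed as the product of these and are an upper estimate.

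Python 3.11.15 with numpy 2.4.6, pandas 2.3.3 and scipy 1.17.1 was used. Scores and ranks were compared between regions within a list, and scores of different libraries were not compared as amounts, since they move with depth. A region's rank is the worse of its 2 ranks in its lists, and strong means both within 20000. Ties at rank 40000 were broken by position. Gene ends come from the RefSeq table of GRCm38.p6, the assembly of mm10, and either end counted, so a gene end is not always a start. Promoter windows of 300 bases were taken from RefSeq at GRCm38.p6, and windows on chromosome 18 were not used here. Positions count from 1. The region search was tested on simulated summits. With 1 library per group no test was possible.

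The members and the gene lists were chosen with earlier results of these data known. Named genes were those with most members, those nearest the 20 best members, up to 4 per gene list with most members, and 21 genes looked up in any case. Alternatives changed the number of summits kept, the window, the distance of absence, the pairing of summits, the gene assignment and the distance counted as near. How ties were treated, a distance of 2000 bp and the equal-length mirror list were added after seeing the data. Values of some named genes are not reported here.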

Additional observations from a re-analysis of the deposited data

How the results depend on the processing

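With 1 library per group no replicate could be left out. No paired analysis was possible because each group holds 1 library and no result comes from a test. The number of members ran from 1488 to 2858 over 9 alternatives other than list length. Keeping 20000 summits per list left 85 members (0.535%), of which 49.4% lay within 1 kb of a gene end and 58.8% inside a gene, and 2 were assigned to the gene lists. With the lists as deposited there were 6950 (17.5%), with 7.8% near a gene end and 356 in the gene lists, and 1919 of the 1927 members overlapped one. The share of regions without a non-immobilized summit was 8.44% at a distance of absence of 250 bp, 5.78% at 1000 bp and 5.16% at 2000 bp, and the share of members near a gene end was 15.9%, 6% and 5.44%. With windows of 500 bp on each side these were 6.3% and 7.81%. Against the best 40000 non-immobilized summits the share was 9.92%. Counting 500 bp as near gave 5.55% and 2000 bp gave 14.8%. The 95 members in the gene lists, each counted once also where its gene is in 2 lists, became 43 with assignment within 10 kb. They became 61 when each went to the gene containing it. The share inside genes moved past its interval with 20000 summits and in no other alternative run.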

Other observations

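MicroRNA genes, which the gene lists leave out, were compared by the distance to the RefSeq hairpin. A hairpin lay within 10 kb of 27 of the 1927 members (1.4%, 0.925 to 2.03) and of 603 of the 26884 regions with a non-immobilized summit (2.24%, 2.07 to 2.43). With ranks beyond 20000 the shares were 1.36% of members and 1.57% of the other regions, with intervals that overlap. Mir205, an epithelial microRNA, had a member 3.4 kb away with 10.4 immobilized and 6.49 at day 0, and the nearest non-immobilized summit was 9.9 kb from it. Mir194-2 had one 2.3 kb away with 10.2 immobilized and 5.96 at day 0, 5.9 kb from a non-immobilized summit. Mir3089 had one 2.8 kb away with 21.8 immobilized and 20.6 at day 0, and there a non-immobilized summit stood 0.7 kb off. These 3 were chosen after their values were seen.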
